A study of Caenorhabditis elegans with 24 samples.

Results

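Lysozymes are enzymes that cut the peptidoglycan of bacterial cell walls, and the lysozyme genes described here were 10 members of the lys and ilys families of Caenorhabditis elegans. They were taken by their WormBase symbols: the 7 genes lys-1, lys-2, lys-3, lys-4, lys-5, lys-7 and lys-8 and the 3 genes ilys-2, ilys-3 and ilys-5. The deposited values covered 21689 genes, and the name table held 16 lys and ilys symbols, 6 of which (lys-6, lys-9, lys-10, ilys-1, ilys-4 and ilys-6) lay outside the choice and are given only as relatives. RNA was sequenced from whole animals on the first day of adulthood, raised at 20 °C on the Escherichia coli strain OP-50-1, in 24 libraries. There were 6 genotypes with 4 libraries each, and each of 4 labelled batches held 1 library of every genotype. They were wild-type N2 animals (wt), the single mutants daf-2 and htz-1, the double mutants daf-16;daf-2 and daf-2;htz-1, and the triple mutant daf-16;daf-2;htz-1. Every daf-2 mutant carried e1370, every daf-16 mutant mu86 and every htz-1 mutant bon101. No group carried the daf-16 allele without the daf-2 allele, so the part of daf-16 could be read only in daf-2 mutants. The labels do not say what bon101 changes in htz-1, how many independent lines each genotype stands for, or whether the 4 libraries of a genotype came from separate cultures.

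The receptor for insulin and IGF-1 is the product of daf-2, and the e1370 allele reduces its function, which lets the FOXO transcription factor DAF-16 enter the nucleus. Animals with reduced daf-2 function live longer and resist bacterial pathogens, and daf-16 is needed for both. The product of htz-1 is H2A.Z, a variant of histone H2A. C. elegans feeds on bacteria, which are crushed in the pharynx and digested in the intestinal lumen. Its lysozymes belong to unrelated protein families: the lys genes encode enzymes that resemble those of amoebae, and the ilys genes encode invertebrate-type lysozymes. Several are made in the intestine and take part both in digesting bacteria and in defence against them. Among the lys genes, lys-7 and lys-8 are known targets of DAF-16, lys-8 also of the DBL-1 (TGF-beta) pathway, and lys-1 and lys-7 protect against several bacterial pathogens. Of the ilys genes, ilys-3 is known from the pharynx, the intestine and the coelomocytes, and is needed for defence against bacteria.

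Most members lay beside a relative in the genome (build WBcel235, Ensembl release 115). The genes lys-1 (WBGene00003090, chromosome V, 10277904 to 10279056, forward strand), lys-2 (WBGene00003091, chromosome V, 10280307 to 10281474, reverse) and lys-3 (WBGene00003092, chromosome V, 10282100 to 10283544, reverse) were neighbours, with gaps of 1250 and 625 bases. On chromosome IV, lys-4 (WBGene00003093, 11621429 to 11623174, reverse) and lys-5 (WBGene00003094, 11624252 to 11625582, reverse) lay 1077 bases apart, and lys-6 followed lys-5 after 1327 bases. Also on chromosome IV, ilys-3 (WBGene00016670, 2464456 to 2465443, forward) and ilys-2 (WBGene00016669, 2467678 to 2468879, forward) lay 2234 bases apart, followed by ilys-1 after 1534 bases. The others stood alone, with lys-7 (WBGene00003096) on chromosome V from 3481432 to 3482600 on the reverse strand, lys-8 (WBGene00003097) on chromosome II from 5586178 to 5587651 on the forward strand, and ilys-5 (WBGene00017691) on chromosome X from 6533490 to 6536840 on the reverse strand. Each value covers the whole gene. Since the library type does not mark strand, the value of lys-8 is uncertain where it overlaps the coding gene C17G10.13 on the opposite strand, and how reads that match more than 1 related gene were assigned is not stated.

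Values are regularized log2 values (rlog), in which 1 unit is a factor of 2 and differences of genes with few reads are shrunk. They are not scaled by gene length, so a value is compared only with values of the same gene. The read number behind each library is unknown. All 10 members passed the filter of a mean of at least 3, ilys-3 in spite of a mean of 2.57 in the wt group and one of 2.54 in daf-16;daf-2. A call means an adjusted p under 0.05 in limma, with Benjamini-Hochberg adjustment over all 14482 genes tested, and every ± after a difference is the SE of that fit. With the mu86 allele, daf-16 lay between 9.70 and 9.99 in the double mutant, below every daf-2 library (10.23 to 10.48), though the difference of -0.45 ± 0.21 was not called (adjusted p = 0.109). It lay between 8.47 and 9.72 in the triple mutant, below every daf-2;htz-1 library (9.94 to 10.34), with a called difference of -0.85 ± 0.21 (adjusted p = 0.00276). The htz-1 value was not lower with bon101 (11.37 ± 0.13, SD, n = 4, in htz-1 and 10.91 ± 0.32 in wt), so it does not check that label. Replicate 3 of the triple mutant stood apart: its mean correlation with the other libraries of its group was 0.951, the lowest of all 24 libraries, where the others had 0.959 to 0.987. The next lowest, 0.959, was that of daf-2 replicate 1. Without daf-2 replicate 1 the calls over all genes between daf-16;daf-2 and daf-2 went from 3716 to 2173. The member differences that lose or gain a call without replicate 3 of the triple mutant are given beside the result or with the values of that library.

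Transcripts of 6 of the 10 members differed between daf-2 and wt, where 12.4% of all genes tested were called, and of 7 between htz-1 and wt, where 51.0% were. The genes fell into sets that moved in different ways. The genes lys-7, ilys-2 and ilys-3 were higher in daf-2 and higher again with the htz-1 allele. The genes lys-5 and ilys-5 were far lower in the groups with reduced daf-2 function and an intact daf-16. The neighbours lys-1, lys-2 and lys-3 followed the htz-1 allele and were not called between daf-2 and wt, lys-8 lay above wt in every mutant library, and lys-4 was highest in wt. The distance between the lowest and the highest of the 6 group means ran from 1.44 for lys-8 to 7.59 for ilys-3.

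**Figure D1:**
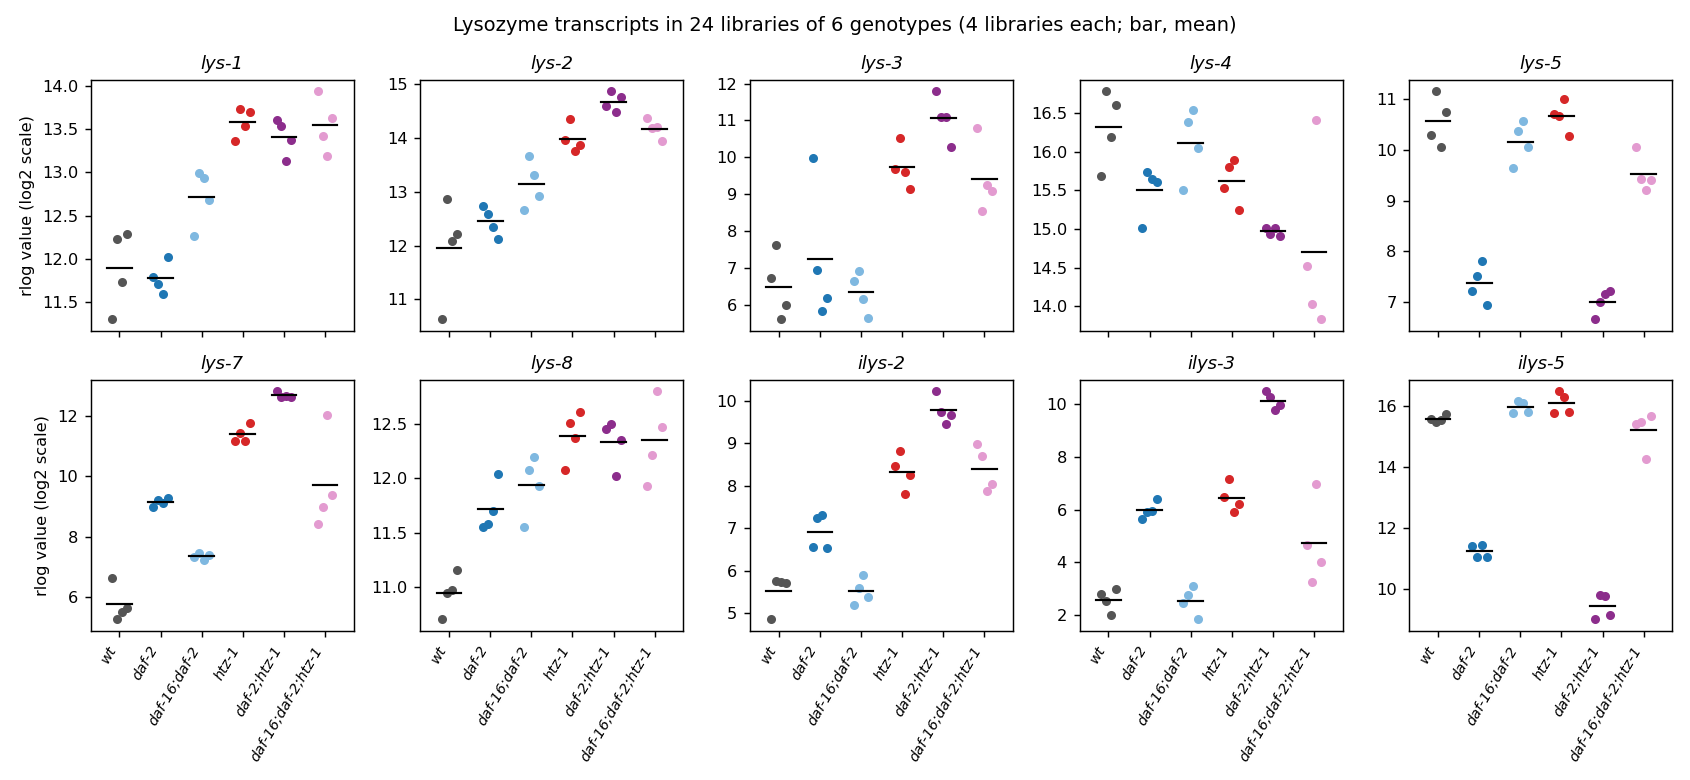
The rlog value (log2 scale, vertical axis, its own scale in each panel) of the 10 lysozyme genes is plotted for 6 genotypes, with 1 point per library and a bar at the mean of 4 libraries. For ilys-5 the daf-2 and daf-2;htz-1 libraries sit between 9.02 and 11.47 while all others sit above 14, and for lys-7 and ilys-3 replicate 3 of the triple mutant sits above its group.

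The comparison of daf-2 with wt addressed reduced insulin/IGF-1 receptor function. Of the 10 members, 4 rose (lys-7, lys-8, ilys-2 and ilys-3) and 2 fell (lys-5 and ilys-5), where 6.43% of all genes tested were called higher and 5.95% lower (12.4% in either direction). Setting daf-16;daf-2 against daf-2 uses the same daf-2 libraries, so a reverse sign there is not independent of the first comparison. In it 3 members were higher and 3 lower, beside 16% and 9.65% of all genes (25.7% in either direction). Centring each library on its median changed the all-gene split in that comparison from 62.4% to 44.6% of the calls being higher, and quantile normalization to 48.8%. The 6 member calls were kept under both.

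The DAF-16 target lys-7 had values of 6.63, 5.24, 5.47 and 5.63 in wt, 8.98, 9.21, 9.10 and 9.27 in daf-2, and 7.31, 7.44, 7.23 and 7.39 in daf-16;daf-2. The 3 groups did not overlap, and without daf-16 the gene lay between wt and daf-2. It rose in daf-2 by 3.39 ± 0.45 (adjusted p = 9.84e-06), and it fell by 1.79 ± 0.45 without daf-16 (adjusted p = 0.00515). What was left above wt, 1.60 ± 0.45, was not called (adjusted p = 0.0845), with adjusted p from 1.36e-04 to 0.382 over the other settings and a call in 4 of 37 of them.

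The invertebrate-type gene ilys-3 had values of 2.78, 2.51, 2.01 and 2.98 in wt, 5.65, 5.92, 5.97 and 6.40 in daf-2, and 2.45, 2.75, 3.11 and 1.84 in daf-16;daf-2. Every daf-2 library stood above every library of the other 2 groups, which overlapped. Its rise in daf-2 was 3.41 ± 0.50 (adjusted p = 3.80e-05, 10.6-fold on the rlog scale), and it fell by 3.45 ± 0.50 without daf-16 (adjusted p = 2.09e-05). The difference between daf-16;daf-2 and wt was -0.03 ± 0.50. With means below 3 in wt and daf-16;daf-2, the values of ilys-3 are in the range where rlog shrinks differences.

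Its neighbour ilys-2 moved the same way by less. It had values of 4.86, 5.76, 5.74 and 5.72 in wt, 6.56, 7.25, 7.31 and 6.53 in daf-2, and 5.19, 5.59, 5.91 and 5.38 in daf-16;daf-2. The daf-2 libraries again stood above both other groups. The rise was 1.40 ± 0.28 (adjusted p = 0.00140), and without daf-16 the value fell by 1.40 ± 0.28 (adjusted p = 9.01e-04). The mean of ilys-2 was 5.52 in both groups with which daf-2 was compared.

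The lysozyme gene lys-8 also rose in daf-2, but it was not lower without daf-16. It lay between 10.70 and 11.16 in wt, between 11.55 and 12.04 in daf-2, and between 11.55 and 12.20 in daf-16;daf-2. The 2 daf-2 mutant groups overlapped and both lay above wt. The rise was 0.77 ± 0.18 in daf-2 (adjusted p = 0.00569) and 0.99 ± 0.18 in daf-16;daf-2 (adjusted p = 0.00363), both against the same wt libraries, and the difference between the mutants was 0.22 ± 0.18 (adjusted p = 0.387). The first call was lost without batch 4 (adjusted p = 0.0572) and the second without batch 2 (adjusted p = 0.0919).

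The genes ilys-5 and lys-5 were the members that fell in daf-2. For ilys-5 the values were 15.58, 15.50, 15.56 and 15.76 in wt, 11.44, 11.06, 11.47 and 11.07 in daf-2, and 15.77, 16.17, 16.12 and 15.81 in daf-16;daf-2. The daf-2 libraries stood apart by more than 4 units from the nearest library of the other groups. The gene fell by 4.34 ± 0.25 (adjusted p = 3.07e-11, 20.3-fold on the rlog scale), and the value without daf-16 was higher than in daf-2 by 4.71 ± 0.25 (adjusted p = 2.43e-12). The difference between daf-16;daf-2 and wt was 0.37 ± 0.25 (adjusted p = 0.560), although those groups did not overlap.

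For lys-5 the values were 10.30, 11.15, 10.05 and 10.74 in wt, 7.21, 7.52, 7.80 and 6.95 in daf-2, and 9.64, 10.38, 10.56 and 10.05 in daf-16;daf-2. The daf-2 libraries were lower than all others, and the wt and daf-16;daf-2 libraries overlapped. The gene fell by 3.19 ± 0.24 in daf-2 (adjusted p = 2.27e-09) and was higher by 2.79 ± 0.24 without daf-16 (adjusted p = 1.36e-08). In these whole-animal samples, fewer cells of a type and less RNA per cell cannot be told apart.

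The neighbours lys-1, lys-2 and lys-3 were not called between daf-2 and wt, with differences of -0.11 ± 0.21 (adjusted p = 0.775), 0.50 ± 0.30 (adjusted p = 0.305) and 0.74 ± 0.63 (adjusted p = 0.494). The value of lys-3 rested on 1 library: in daf-2 it was 9.97, 6.92, 5.82 and 6.18, and without daf-2 replicate 1 the difference was -0.17. Without daf-16, lys-1 was higher than in daf-2 by 0.94 ± 0.21 (adjusted p = 0.00196), with 12.27 to 12.99 against 11.59 to 12.01 and no overlap. Against wt, lys-1 (0.83 ± 0.21, adjusted p = 0.0474) and lys-2 (1.19 ± 0.30, adjusted p = 0.0493) were just past the threshold, with overlapping groups. Those calls were lost in 27 and 30 of 37 other settings. With lys-8 they made 3 members higher than wt and 0 lower (limma, 4 and 0 at an unadjusted p under 0.05), beside 0.801% and 0.387% of all genes (1.19% in either direction). Of the calls over all genes there, 67.4% were higher, or 46.4% with centred libraries and 52.6% with quantile normalization.

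**Figure D2:**
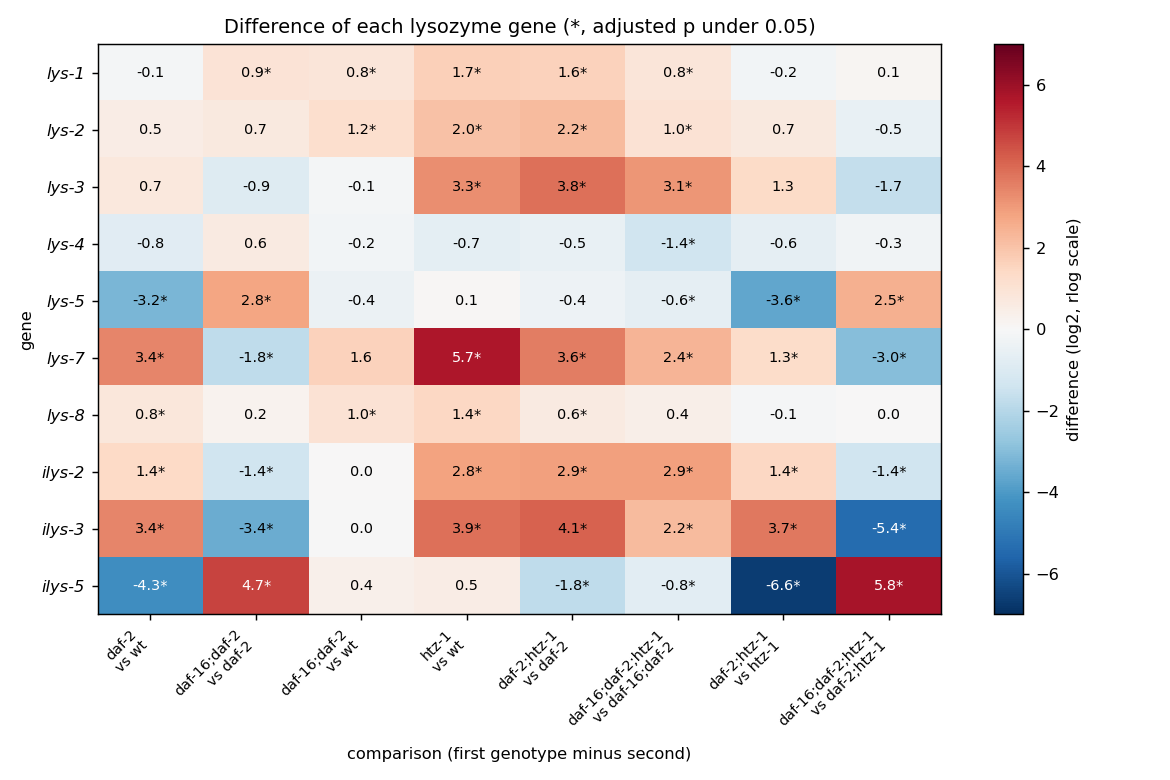
Differences between genotypes (first minus second, log2 units on the rlog scale, as colour and number) are shown for 10 lysozyme genes in 8 comparisons, with an asterisk for an adjusted p under 0.05. The rows of lys-5 and ilys-5 change sign between the columns daf-2 against wt and daf-16;daf-2 against daf-2, which share the daf-2 libraries, and the column htz-1 against wt holds 7 rises and no called fall.

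With the htz-1 allele, 7 members rose and 0 fell against wt (lys-1, lys-2, lys-3, lys-7, lys-8, ilys-2 and ilys-3), where 51.0% of all genes were called, 26.4% higher and 24.5% lower. At an unadjusted p under 0.05 the counts were also 7 and 0. In the daf-2 background the same 7 genes rose and 1 fell (ilys-5), beside 20.4% of all genes higher and 20.1% lower (40.5% in either direction). In daf-16;daf-2, 6 rose and 3 fell, beside 24.1% and 24.3% (48.3% in either direction), and the falls of lys-5 and ilys-5 lost their calls under both other scalings. Centring the libraries changed the share of higher calls among all genes in that last comparison from 49.8% to 63.7% and its median difference from 0.03 to 0.27, and quantile normalization gave 60.2% and 0.18. These 3 comparisons share no library. The median difference of the 10 members was 1.87, 1.93 and 0.93 in the 3 backgrounds, beside 0.03, 0.04 and 0.03 over all genes.

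Against wt, the difference of lys-7 with the htz-1 allele was the largest of the 10 members. Its values were 11.18, 11.45, 11.17 and 11.78 in htz-1 and 12.84, 12.65, 12.67 and 12.63 in daf-2;htz-1, both far above the corresponding backgrounds. The rise was 5.65 ± 0.45 from wt (adjusted p = 3.34e-10, 50.2-fold on the rlog scale) and 3.56 ± 0.45 from daf-2 (adjusted p = 1.05e-06). The second difference minus the first was -2.09 ± 0.63 (adjusted p = 0.0286), a call lost in 7 of 37 other settings. In the triple mutant lys-7 was 8.43, 8.99, 12.05 and 9.38, and the 12.05 was that of replicate 3. Against daf-16;daf-2 it rose by 2.36 ± 0.45 (adjusted p = 9.35e-05), and by 1.58 without that library (adjusted p = 7.35e-06).

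The neighbours ilys-2 and ilys-3 rose in every background. For ilys-2 the values were 8.46, 8.83, 7.80 and 8.26 in htz-1, 10.23, 9.75, 9.46 and 9.68 in daf-2;htz-1, and 8.99, 8.69, 7.88 and 8.05 in the triple mutant. Its rises of 2.82 ± 0.28, 2.87 ± 0.28 and 2.89 ± 0.28 from wt, daf-2 and daf-16;daf-2 differed by less than their SE, with adjusted p of 1.15e-08, 3.60e-08 and 5.47e-09. For ilys-3 the values were 6.48, 7.18, 5.93 and 6.22 in htz-1, 10.50, 10.28, 9.78 and 9.97 in daf-2;htz-1, and 4.64, 3.26, 6.98 and 4.03 in the triple mutant. In daf-2;htz-1 every library of ilys-3 stood more than 2 units above every library of the other groups. Its rises were 3.88 ± 0.50 (adjusted p = 5.00e-07), 4.15 ± 0.50 (adjusted p = 6.00e-07) and 2.19 ± 0.50 (adjusted p = 7.36e-04), the last 1.44 without replicate 3 of the triple mutant.

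The chromosome V neighbours rose together with the htz-1 allele in all backgrounds, without overlap. For lys-3 the values were 6.71, 7.63, 5.60 and 6.0 in wt and 9.69, 10.51, 9.61 and 9.14 in htz-1. They were 11.80, 11.10, 11.10 and 10.27 in daf-2;htz-1 and 10.78, 8.55, 9.23 and 9.08 in the triple mutant. The differences of lys-3 were 3.26 ± 0.63 (adjusted p = 1.31e-04), 3.84 ± 0.63 (adjusted p = 3.69e-05) and 3.07 ± 0.63 (adjusted p = 2.60e-04). For lys-1, which lay between 11.30 and 12.29 in wt and between 13.36 and 13.73 in htz-1, they were 1.69 ± 0.21, 1.64 ± 0.21 and 0.83 ± 0.21. For lys-2, between 10.63 and 12.86 in wt and between 13.76 and 14.36 in htz-1, they were 2.04 ± 0.30, 2.23 ± 0.30 and 1.04 ± 0.30. All of these lys-1 and lys-2 differences were called (adjusted p from 2.34e-07 to 0.00624).

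The smaller rise of lys-1 and lys-2 where daf-16 was missing was tested as a difference of differences. It was -0.81 ± 0.29 for lys-1 (adjusted p = 0.0430) and -1.19 ± 0.43 for lys-2 (adjusted p = 0.0406) between daf-16;daf-2 and daf-2, calls lost in 20 and 16 of 37 other settings. For lys-3 it was -0.77 ± 0.90 (adjusted p = 0.560). The rise of lys-8 was 1.44 ± 0.18 from wt (adjusted p = 3.90e-07) and 0.61 ± 0.18 from daf-2 (adjusted p = 0.00946), and the second minus the first was -0.83 ± 0.26 (adjusted p = 0.0335, lost in 12 of 37 settings). From daf-16;daf-2 it was 0.42 ± 0.18 (adjusted p = 0.0634), called with the batch as a block (adjusted p = 0.0380). The groups with the htz-1 allele lay between 11.93 and 12.80 for lys-8 and overlapped each other.

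**Figure D3:**
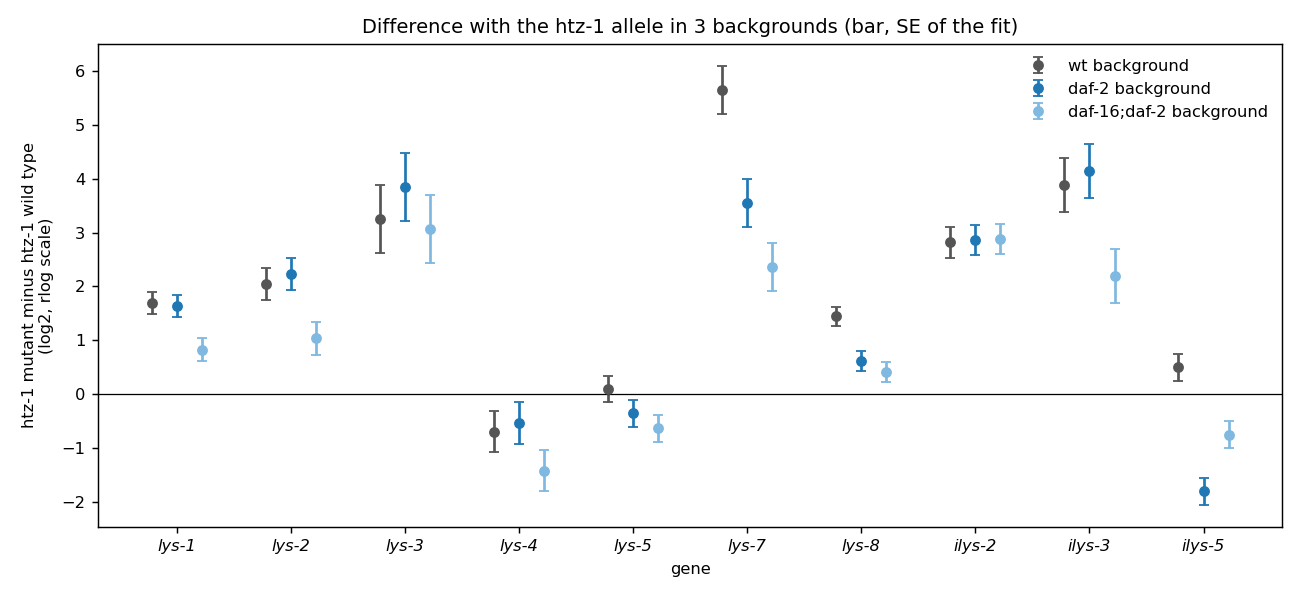
The difference between libraries with and without the htz-1 allele (log2 units, rlog scale, vertical axis) is plotted for each lysozyme gene in the wt, daf-2 and daf-16;daf-2 backgrounds, with the SE of the fit as bars. The genes ilys-2 and lys-3 have overlapping bars in the 3 backgrounds, and ilys-5 goes from 0.50 in wt to -1.80 in daf-2.

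The member that fell in daf-2 by the most, ilys-5, fell with the htz-1 allele in daf-2 and was not called with it in wt. In htz-1 its values were 15.77, 16.50, 16.32 and 15.82, in daf-2;htz-1 9.02, 9.83, 9.79 and 9.16, and in the triple mutant 15.43, 15.49, 14.28 and 15.67. Each daf-2;htz-1 library was below each daf-2 library. The difference with htz-1 was 0.50 ± 0.25 in wt (adjusted p = 0.1002) and -1.80 ± 0.25 in daf-2 (adjusted p = 4.85e-06), and the difference between those was -2.31 ± 0.36 (adjusted p = 1.35e-04). In daf-16;daf-2 it was -0.75 ± 0.25 (adjusted p = 0.0160), or -0.44 without replicate 3 of the triple mutant (adjusted p = 0.0952). The difference in daf-16;daf-2 minus that in daf-2 was 1.05 ± 0.36 (adjusted p = 0.0311, lost in 10 of 37 other settings). It uses the same daf-2 and daf-2;htz-1 libraries as the -2.31, so the 2 calls are not independent.

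For lys-5 no htz-1 difference was called in wt (0.10 ± 0.24, adjusted p = 0.767) or in daf-2 (-0.36 ± 0.24, adjusted p = 0.252). Its values were 10.69, 10.66, 11.001 and 10.28 in htz-1, 6.66, 7.0, 7.16 and 7.23 in daf-2;htz-1, and 10.05, 9.42, 9.21 and 9.41 in the triple mutant. They overlapped those of the matching group without the allele in each case. From daf-16;daf-2 to the triple mutant it fell by 0.64 ± 0.24 (adjusted p = 0.0340), a call lost without replicate 3 of the triple mutant (-0.53, adjusted p = 0.0975) and in 9 other settings.

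The comparison of daf-2;htz-1 with htz-1 measured the daf-2 allele in the presence of the htz-1 allele. Of the members, 3 were higher and 2 lower, beside 11.5% and 8.04% of all genes (19.6% in either direction). The genes were those that moved between daf-2 and wt apart from lys-8 (-0.06 ± 0.18, adjusted p = 0.875). The difference of ilys-5 was -6.65 ± 0.25 (adjusted p = 3.37e-15) and that of lys-5 -3.64 ± 0.24 (adjusted p = 2.13e-10). The genes ilys-3 (3.68 ± 0.50, adjusted p = 8.88e-06) and ilys-2 (1.44 ± 0.28, adjusted p = 6.91e-04) rose without overlap. For lys-7 the rise of 1.30 ± 0.45 (adjusted p = 0.0411) was lost in 11 of 37 other settings. Array weights, which weigh each library by its spread, called 8 members, and the calls over all genes rose from 2836 to 5496.

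The triple mutant set against daf-2;htz-1 measured daf-16 with both other alleles present. It gave 2 members higher and 3 lower, beside 12.8% and 17.4% of all genes (30.2% in either direction). The daf-2;htz-1 libraries are shared with the preceding comparison. The gene ilys-5 was higher by 5.76 ± 0.25 (adjusted p = 9.47e-14) and lys-5 by 2.51 ± 0.24 (adjusted p = 4.97e-08). The genes ilys-3, lys-7 and ilys-2 were lower, with differences of -5.40 ± 0.50 (adjusted p = 2.26e-08), -2.99 ± 0.45 (adjusted p = 1.84e-05) and -1.38 ± 0.28 (adjusted p = 6.52e-04). None of these 5 genes overlapped between the groups. The difference of lys-3, -1.65 ± 0.63, was not called (adjusted p = 0.0509) and was called with the batch as a block (adjusted p = 0.0146).

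Replicate 3 of the triple mutant had the highest lys-7, ilys-3 and lys-4 values and the lowest ilys-5 value of its group. Without it, the differences from daf-2;htz-1 were -6.15 for ilys-3, -3.77 for lys-7 and 6.07 for ilys-5, all called. The htz-1 rise of ilys-3 in daf-16;daf-2 minus that in daf-2 was -1.96 ± 0.71 (adjusted p = 0.0421), or -2.71 without that library (adjusted p = 4.38e-04). With the batch as a block the first value had an adjusted p of 0.0513, and it was lost in 18 of 37 settings in all. For lys-7 the same difference was -1.19 ± 0.63 (adjusted p = 0.165), and -1.97 without the library (adjusted p = 2.07e-04). For lys-4 it was -0.89 ± 0.55 (adjusted p = 0.240), and -1.45 without the library (adjusted p = 0.00821), while the value of lys-1 lost its call (-0.69, adjusted p = 0.0830). Leaving that library out also changed the spread shared by all groups. Differences from wt in which it takes no part then became called. They were those of lys-7 in daf-16;daf-2 (adjusted p = 1.36e-04), of lys-4 in daf-2 (adjusted p = 0.0404) and in htz-1 (adjusted p = 0.0299), and of ilys-5 in htz-1 (adjusted p = 0.0380). The daf-16 value of that library, 9.72, was the highest of its group. In this difference of htz-1 effects, 1 member was positive and 3 negative with all libraries (10% and 16.5% of all genes, 26.5% in either direction), and in the one between daf-2 and wt 0 and 3 were (limma, also 0 and 3 at an unadjusted p under 0.05, 7.78% and 5.57% of all genes, 13.3% in either direction). The positive share of the all-gene calls in the first was 37.8%, 55.9% with centred libraries and 50.9% with quantile normalization.

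The gene lys-4 was the member with the fewest calls, 1 of 8 pairwise comparisons. Its values were 15.68, 16.78, 16.19 and 16.61 in wt, 15.01, 15.74, 15.65 and 15.61 in daf-2, and 15.53, 15.80, 15.90 and 15.25 in htz-1. The groups overlapped, and the differences from wt of -0.81 ± 0.39 in daf-2 (adjusted p = 0.183) and -0.70 ± 0.39 in htz-1 (adjusted p = 0.139) were not called. Within each of batches 1 to 4, lys-4 was lower in daf-2 than in wt, with differences of -0.67, -1.04, -0.53 and -0.99, and higher without daf-16 by 0.50, 0.65, 0.88 and 0.44. With the batch as a block neither was called (adjusted p = 0.143 and 0.205), and without replicate 3 of the triple mutant the first was (adjusted p = 0.0404). In the triple mutant lys-4 was 14.52, 14.03, 16.40 and 13.83, against 15.51, 16.38, 16.53 and 16.05 in daf-16;daf-2. The difference of -1.42 ± 0.39 was called (adjusted p = 0.00372), and was -1.99 (adjusted p = 2.97e-06) without replicate 3, the only one within the range of the daf-16;daf-2 values. The call was lost without batch 2 or batch 4. From daf-2;htz-1 the triple mutant differed by -0.27 ± 0.39 (adjusted p = 0.632), and by -0.84 without replicate 3 (adjusted p = 0.0299).

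Placed in order of their group means, the members differed in which groups could be separated. For lys-7 the order was wt, daf-16;daf-2, daf-2, triple mutant, htz-1 and daf-2;htz-1. The triple mutant overlapped both of its neighbours, htz-1 only through replicate 3. For ilys-3 it was daf-16;daf-2, wt, triple mutant, daf-2, htz-1 and daf-2;htz-1. The lowest pair overlapped, as did daf-2 with htz-1, and the triple mutant overlapped daf-2 only through replicate 3. For ilys-5 it was daf-2;htz-1, daf-2, triple mutant, wt, daf-16;daf-2 and htz-1, with overlap between the triple mutant and wt and between the highest pair. For lys-8 wt was lowest and did not overlap daf-2, and every later pair of neighbours overlapped.

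Neighbouring genes differed in how often they were called. Over the 8 pairwise comparisons, lys-4 had 1 call and lys-5 had 5. Their signs were the same in daf-2 against wt (-0.81, not called, and -3.19) and in daf-16;daf-2 against daf-2 (0.62, not called, and 2.79). In htz-1 against wt the signs differed (-0.70 and 0.10, neither called). Whether their patterns differ was not tested. The relative lys-6, on the far side of lys-5, fell by 1.48 ± 0.25 in daf-2 (adjusted p = 1.94e-04), from 10.72, 11.82, 11.45 and 11.83 in wt to 9.34, 10.10, 10.27 and 10.21. Its daf-2 libraries lay below all wt libraries, and the gene was higher by 1.28 ± 0.25 without daf-16 (adjusted p = 5.97e-04). In daf-2;htz-1 its difference from htz-1 was -2.26 ± 0.25 (adjusted p = 4.54e-07). Beside ilys-2 and ilys-3, the relative ilys-1 stayed near the lowest values of the file, with group means from -0.99 to -0.56, and it was not tested.

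**Figure D4:**
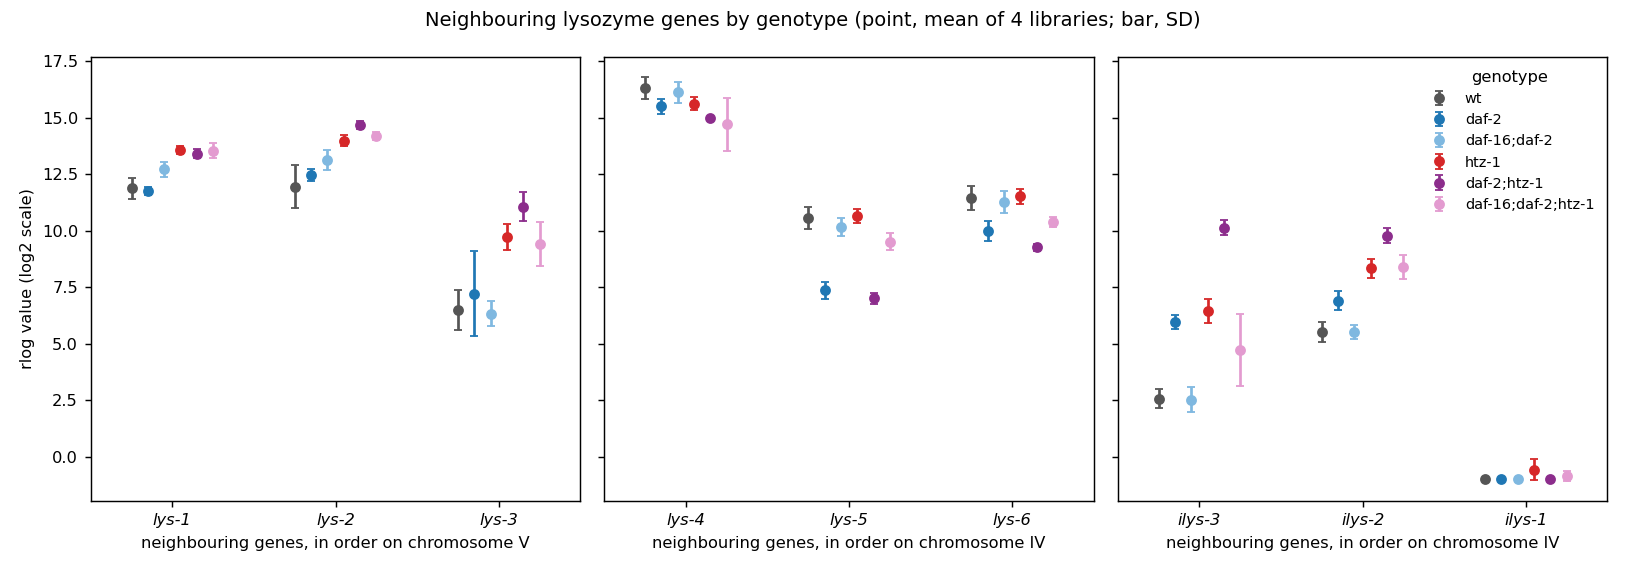
Mean rlog values (log2 scale, vertical axis, bars for the SD of 4 libraries) are plotted by genotype for 3 runs of neighbouring lysozyme genes. The daf-2 and daf-2;htz-1 points of lys-5 sit at 7.37 and 7.01, below its other genotypes. Those of lys-4, at 15.50 and 14.97, lie below wt, daf-16;daf-2 and htz-1 and above the triple mutant. The points of ilys-1 lie near -1 in most genotypes. Heights are not comparable between genes.

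Among the other relatives, lys-10 rose with the htz-1 allele by 2.81 ± 0.35 in wt (adjusted p = 3.75e-07), 2.25 ± 0.35 in daf-2 (adjusted p = 2.19e-05) and 1.35 ± 0.35 in the double mutant with daf-16 (adjusted p = 0.00284). The relative ilys-4 rose with the htz-1 allele by 0.73 ± 0.21 in wt (adjusted p = 0.00556) and 0.84 ± 0.21 in daf-2 (adjusted p = 0.00273). In daf-16;daf-2 it was not called (0.11 ± 0.21, adjusted p = 0.707), and the gene overlaps the coding gene atic-1 on the opposite strand. The values of lys-9, near the lowest of the file, had group means from -0.56 to -0.24 and were kept out of the main tests. With no filter its difference between htz-1 and wt was 0.32 (limma, adjusted p = 0.109).

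Genes of pathways that act on intestinal defence were called in part in the same comparisons as the members. Each count below stands beside the share of all genes called in that comparison: 12.4% for daf-2 against wt, 25.7% for the removal of daf-16 from daf-2, and 51.0%, 40.5% and 48.3% for the htz-1 allele in wt, daf-2 and daf-16;daf-2. A share of a list near these is no result about the list. In the p38 MAP kinase pathway, which raises defence genes in the intestine, 6 of 7 genes rose with the htz-1 allele in wt, 4 in daf-2 and all 7 in daf-16;daf-2, and 0 of 7 were called between daf-2 and wt or between daf-16;daf-2 and daf-2 (limma, also 0 at an unadjusted p under 0.05). The kinase gene pmk-1 rose by 1.10 ± 0.19, 0.91 ± 0.19 and 1.03 ± 0.19 in the 3 backgrounds, and tir-1, which encodes the adaptor at the top of the pathway, by 2.40 ± 0.21 from wt and 1.87 ± 0.21 from daf-16;daf-2. From daf-2 the tir-1 difference of 0.50 ± 0.21 was not called (adjusted p = 0.0568). The phosphatase gene vhp-1, whose product dampens the pathway, rose by 1.30 ± 0.24, 1.37 ± 0.24 and 1.30 ± 0.24. Of 10 DBL-1 pathway genes, 2, 4 and 3 rose in the 3 backgrounds, and 2 fell in daf-16;daf-2, among them the ligand gene dbl-1 (-1.32 ± 0.33, adjusted p = 0.00161). For daf-2 against wt the DBL-1 list had 0 calls (limma, 1 gene at an unadjusted p under 0.05).

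Of 13 tested regulators of defence genes, 0 were called between daf-2 and wt (limma, 3 lower at an unadjusted p under 0.05), 6 were higher without daf-16, and 3 rose and 4 fell with htz-1 in wt, beside 12.4%, 25.7% and 51.0% of all genes. The bZIP factor gene zip-2, which acts in defence against pathogens, rose by 1.17 ± 0.16 (adjusted p = 1.09e-06), and elt-2, which encodes the main GATA factor of the intestine, fell by 0.98 ± 0.22 (adjusted p = 7.28e-04). For daf-16 itself the htz-1 difference in wt was -0.83 ± 0.21 (adjusted p = 0.00165). Among 13 other genes of bacterial digestion, 3 rose and 3 fell in daf-2 (12.4% of all genes called) and 5 rose and 2 fell in htz-1 (51.0%). The saposin-like gene spp-1, a pore-forming antibacterial protein, rose in daf-2 by 1.39 ± 0.33 (adjusted p = 0.00529), and the protease genes cpr-1 (-2.18 ± 0.26, adjusted p = 3.37e-06) and asp-1 (-1.69 ± 0.34, adjusted p = 0.00113) fell. Without daf-16, spp-1 fell by 1.10 ± 0.33, and cpr-1 and asp-1 were higher by 1.85 ± 0.26 and 2.18 ± 0.34.

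Markers of the tissues that make lysozymes moved with the genotypes too. Of 11 intestine markers, all of them tested, 5 fell in daf-2, 9 were higher without daf-16 than with it, and 7 fell in htz-1, beside 12.4%, 25.7% and 51.0% of all genes called in either direction. In these 3 comparisons 0 moved the other way (limma, also 0 at an unadjusted p under 0.05), and elt-2 and elt-7 were in the regulator list too. With the htz-1 allele, 4 rose and 5 fell in daf-2 (40.5% of all genes called), and 0 rose and 7 fell in daf-16;daf-2 (48.3%). With the daf-2 allele added to htz-1, 3 rose and 3 fell, beside 11.5% and 8.04% of all genes (19.6% in either direction). Between the triple mutant and daf-2;htz-1, 6 were higher and 2 lower in the former, beside 12.8% and 17.4% (30.2% in either direction). The mean value over the intestine list was 10.06 to 10.70 in wt, 9.62 to 9.94 in daf-2, 10.59 to 11.08 in daf-16;daf-2, 9.06 to 9.54 in htz-1, 8.81 to 9.30 in daf-2;htz-1 and 9.50 to 10.05 in the triple mutant. The list was lower in daf-2, where lys-5 and ilys-5 were lower and lys-7, lys-8, ilys-2 and ilys-3 were higher. It was also lower in htz-1, where lys-1, lys-2, lys-3, lys-7, lys-8, ilys-2 and ilys-3 were higher and no member was called lower. Among the intestine markers the actin gene act-5 fell by 1.17 ± 0.24 in daf-2 and the peptide transporter gene pept-1 fell by 3.33 ± 0.30 in htz-1. The part of these markers in the lysozyme results was not tested.

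The pharynx list held 13 genes, 9 of them tested, of which 5 fell in daf-2, 5 were higher without daf-16, and 3 rose and 1 fell in htz-1, beside the same 12.4%, 25.7% and 51.0% of all genes. With the htz-1 allele, 6 rose and 1 fell in daf-2 (40.5% of all genes called), and 3 rose and 1 fell in daf-16;daf-2 (48.3%). Its mean value was 4.02 to 4.50 in wt, 3.08 to 3.32 in daf-2, 4.17 to 4.59 in daf-16;daf-2, 4.64 to 4.78 in htz-1, 4.35 to 4.90 in daf-2;htz-1 and 4.54 to 5.54 in the triple mutant. Of 3 coelomocyte markers, 1 fell in daf-2 (unc-122, -1.22 ± 0.24) and 2 rose in htz-1 (cup-4 by 1.28 ± 0.21 and lgc-26 by 0.71 ± 0.28). Their mean was 7.35 to 7.88 in wt, 6.74 to 7.49 in daf-2, 7.22 to 7.81 in daf-16;daf-2, 7.91 to 8.59 in htz-1, 7.96 to 8.17 in daf-2;htz-1 and 7.87 to 8.47 in the triple mutant. For the lists of other tissues that follow, 51.0% of all genes were called in htz-1 and 12.4% in daf-2, each against wt. All 8 sperm markers fell with htz-1 in wt, daf-2 and daf-16;daf-2 (51.0%, 40.5% and 48.3% of all genes called). Their mean was 7.88 to 8.78 in wt and 5.43 to 5.85 in htz-1. Of 7 hypodermis markers, 5 fell and 1 rose in htz-1 against wt. Of 9 neuron markers, 2 rose there, and of 8 body wall muscle markers, 4 fell in daf-2 and 2 in htz-1. Of 9 oocyte and germline markers, 0 were called in daf-2 against wt (limma, 1 at an unadjusted p under 0.05), and 2 fell in htz-1. For early embryo markers only 1 of 8 was tested. Their part in the lysozyme results was not tested.

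**Figure D5:**
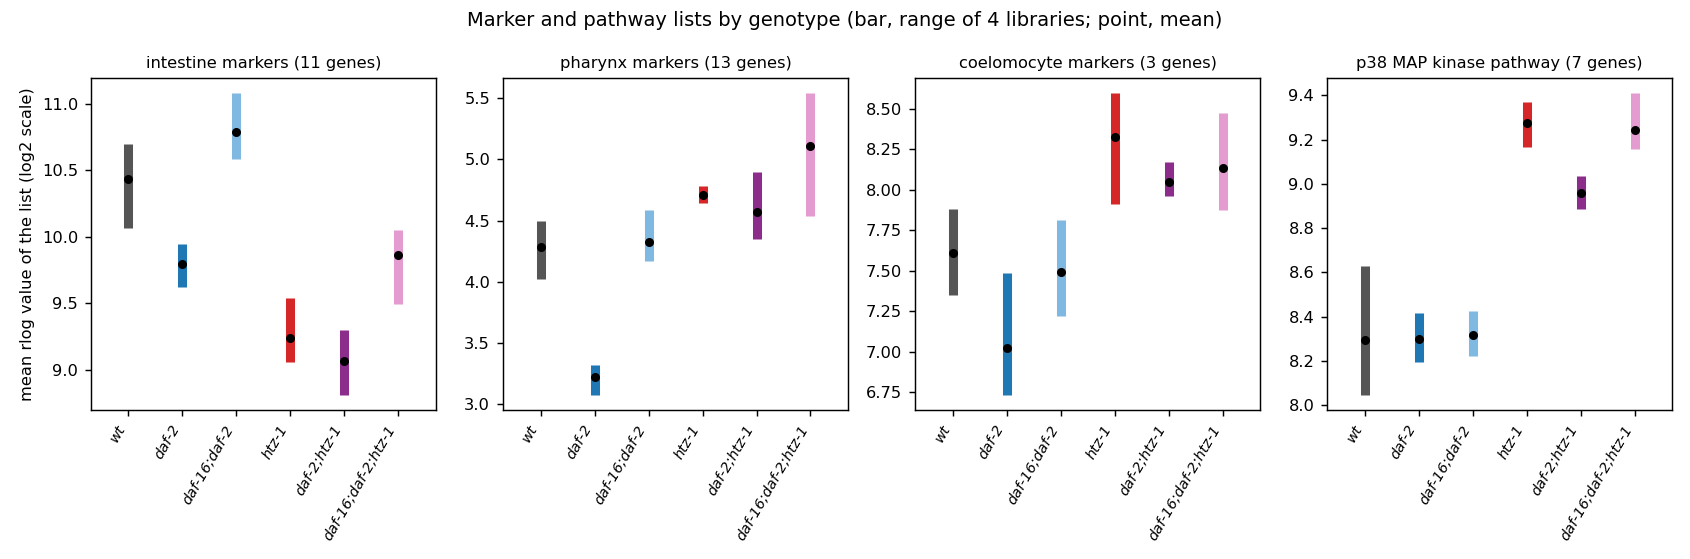
The mean rlog value (log2 scale, vertical axis, its own scale in each panel) over 3 marker lists and the p38 MAP kinase pathway is plotted by genotype, with a bar for the range of 4 libraries and a point for their mean. The intestine list in daf-2 (9.62 to 9.94) lies below wt (10.06 to 10.70) and above htz-1 (9.06 to 9.54).

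For each member the 2 genes with the most similar values were found by Pearson correlation over the 24 libraries among the genes tested. The correlations describe libraries that share genotypes and carry no p. For ilys-3 they were F16B4.7 (r = 0.984) and dhs-9 (r = 0.972), and for ilys-2 far-3 (r = 0.962) and Y110A2AL.9 (r = 0.957). For lys-7 they were Y6E2A.5 (r = 0.969) and F21C10.10 (r = 0.961). The members that fell in daf-2 shared a gene: clec-31, which encodes a C-type lectin, was among the closest of both ilys-5 (r = 0.962, followed by clec-10 with r = 0.937) and lys-5 (r = 0.924, after T15B7.1 with r = 0.925). The chromosome V neighbours had different ones, Y58A7A.3 (r = 0.966) and F59C6.18 (r = 0.957) for lys-1, swt-6 (r = 0.967) and pals-23 (r = 0.960) for lys-2, and W09G12.7 (r = 0.967) and ifas-1 (r = 0.959) for lys-3. The closest genes of lys-8 (asns-2, r = 0.895, and skr-20, r = 0.846) and lys-4 (R09H10.7, r = 0.868, and dhs-28, r = 0.854) were less similar.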

How the data were processed

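Per the labels' protocols, RNA of whole animals was extracted with Trizol and a Qiagen kit and sequenced after SMART-Seq2, a method that does not mark strand. The authors deposited regularized log2 (rlog) values of 21689 genes in 24 libraries. The build WBcel235 and the tools kallisto 048.0 and bcl2fastq 2.20 are listed per the submitters' processing notes; their roles, the tool behind the rlog values and any filter or batch correction are not stated. The file holds no read counts, so depth is unknown and no counting interval was computed.

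Genes with a mean of at least 3 were tested (14482). With limma 3.58.1, 1 mean per genotype was fitted over the 24 libraries (R 4.3.3; intensity trend, 18 residual degrees of freedom, 2-sided tests), with Benjamini-Hochberg adjustment over all genes tested and a threshold of 0.05. The fit was tested on simulated data. Symbols and positions came from Ensembl release 115 (WBcel235), with a symbol for 20315 genes.

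The replicate number equals the labelled batch, so it pairs libraries across genotypes; what a batch shares is not given. Deviations from group means had a mean correlation of 0.0504 within and -0.0163 between batches, and 20 of 60 same-batch pairs exceeded 0.1; between wt and daf-2 all 4 did (0.403 to 0.513). Between wt and daf-2;htz-1 the same-batch correlations were -0.217 to 0.0044, so what was shared differed between genotype pairs. The main fit does not use the pairing, and the batch as a block assumes 1 shift common to all genotypes. The p-values reflect only the spread among the libraries, which may be technical.

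The members and lists were chosen with earlier results of these data known. Named were all 10 members and, per list, up to 2 called genes per direction with the smallest p, plus daf-16, pmk-1, dbl-1, elt-2 and hlh-30 where called, and the 2 genes most like each member; examples of these are printed. The vhp-1 value in wt, lys-6, lys-10 and C17G10.13 are also given, vhp-1 after its values were seen. Alternatives were the batch as a block, no filter, a minimum mean of 5, median centring, quantile normalization, a fit of only the groups compared, array weights, robust variance, no trend, and each library and each batch left out. A planned search of promoters for transcription factor motifs was not run, since no promoter sequence was used here.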

Additional observations from a re-analysis of the deposited data

Results flagged for a closer look

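Of 60 groups of 4 libraries (10 genes in 6 genotypes), 1 had a library far from the others, and chance gives about 1 in 20. It was ilys-2 in wt, where replicate 1 was 4.86 and the others 5.72 to 5.76, a gap of 0.953 of the whole range.

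In 7 cases the difference with the htz-1 allele was itself different between backgrounds (limma, adjusted over all genes tested). Of all genes tested, 13.3% were called for daf-2 minus wt and 26.5% for daf-16;daf-2 minus daf-2. Both sets use the same daf-2 and daf-2;htz-1 libraries, so they are not independent. Between daf-2 and wt, it was smaller in daf-2 for lys-7 (difference -2.09, adjusted p = 0.0286) and lys-8 (-0.83, adjusted p = 0.0335), and for ilys-5 it changed by -2.31 (adjusted p = 1.35e-04), from a value not called in wt to a fall. Between daf-16;daf-2 and daf-2, it was smaller in daf-16;daf-2 for lys-1 (-0.81, adjusted p = 0.0430), lys-2 (-1.19, adjusted p = 0.0406) and ilys-3 (-1.96, adjusted p = 0.0421), and for ilys-5 it was higher by 1.05 (adjusted p = 0.0311). Of these, the ilys-5 difference between daf-2 and wt kept its call in all 37 other settings, and the other 6 lost it in some. The groups in which lys-7 and ilys-3 started were low, lys-7 at 5.74 ± 0.61 in wt (SD, n = 4) and ilys-3 at 2.54 ± 0.54 in daf-16;daf-2, and the part of that in these differences was not tested.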

How the results depend on the processing

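Of 100 member comparisons, 56 were called, and 41 of these kept their call in all 37 other settings, 15 lost it in some and 0 turned; of 44 not called, 14 were called in some setting and 20 turned. The causes were not tested. The count of members called in daf-16;daf-2 against wt (3) was 1 with no filter, centring, quantile normalization, no trend or a fit of only the groups compared, and 0 to 4 with libraries or batches left out. For the htz-1 effect in daf-16;daf-2 minus that in daf-2 it was 4, but 1 with no filter or centring, 2 with quantile normalization or no trend, 6 with array weights, and 0 to 5 with samples left out; for that in daf-2 minus wt it was 3, and 1 to 3. Array weights gave 8 for daf-2;htz-1 against htz-1 and for the triple mutant against daf-2;htz-1 (5 each), and a fit of only the groups compared 8 for the former. The calls over all genes rose too, with array weights from 2836 to 5496 and from 4371 to 7760. The fit of only the groups compared gave 4714 for the former. Array weights also raised them from 3838 to 6273 for the htz-1 effect in daf-16;daf-2 minus that in daf-2. The batch as a replicate block called lys-8 in the triple mutant against daf-16;daf-2 (0.42, adjusted p = 0.0380) and lys-3 in the triple mutant against daf-2;htz-1 (-1.65, adjusted p = 0.0146), lost ilys-3 in the second htz-1 difference (-1.96, adjusted p = 0.0513), and changed no other member call.

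Signs turned only for values that were not called. Under centring, ilys-2 was -0.13 (daf-16;daf-2 against wt) and -0.056 (htz-1 effect, daf-2 minus wt), and lys-8 0.081 (daf-16;daf-2 minus daf-2). Under quantile normalization, ilys-2 was -0.15 (daf-16;daf-2 against wt), lys-8 -0.10 (triple mutant against daf-2;htz-1) and lys-2 -0.074 (htz-1 effect, daf-2 minus wt). Under array weights, lys-3 was -0.079 (daf-2 against wt), ilys-2 -0.066 (daf-16;daf-2 against wt) and -0.032 (htz-1 effect, daf-16;daf-2 minus daf-2), lys-5 -0.10 (htz-1 against wt) and lys-1 0.053 (htz-1 effect, daf-2 minus wt). With samples left out, daf-2 against wt ran from -0.32 to 0.025 for lys-1, -0.032 to 0.81 for lys-2 and -0.17 to 1.22 for lys-3. In daf-16;daf-2 against wt it ran from -0.22 to 0.11 for ilys-2, -0.41 to 0.34 for ilys-3, -0.44 to 0.24 for lys-3 and -0.41 to 0.0090 for lys-4. It ran from -0.19 to 0.29 for lys-5 in htz-1 against wt, -1.35 to 0.031 for lys-3 in daf-16;daf-2 against daf-2, and -0.20 to 0.045 for lys-8 in daf-2;htz-1 against htz-1. In the triple mutant against daf-2;htz-1 it ran from -9.0e-04 to 0.25 for lys-1, -0.84 to 0.018 for lys-4 and -0.23 to 0.21 for lys-8. For the htz-1 effect in daf-2 minus wt it ran from -0.19 to 0.14 for lys-1, -0.12 to 0.74 for lys-2, -0.0040 to 0.37 for lys-4, -0.14 to 0.26 for ilys-2 and -0.027 to 0.51 for ilys-3, and in daf-16;daf-2 minus daf-2 from -0.17 to 0.19 for ilys-2.

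Counts over all genes that moved by more than 1.5 times ran from 738 to 1058 for daf-2 against wt (1793), 55 to 299 for daf-16;daf-2 against wt (172), 2173 to 2348 for daf-16;daf-2 against daf-2 (3716), 1457 to 5496 for daf-2;htz-1 against htz-1 (2836), 2607 to 7760 for the triple mutant against daf-2;htz-1 (4371), and 634 to 3049 (1932) and 2350 to 6273 (3838) for the 2 htz-1 differences. The depth of the libraries is unknown.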

Other observations

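The relative ilys-6, whose mean of 2.09 over the 24 libraries kept it out of the tests, had values of 1.04, 1.03, 1.04 and 1.11 in wt and 3.23, 3.49, 4.06 and 3.00 in daf-2. In daf-16;daf-2 it lay between 0.98 and 1.16, in htz-1 between 0.89 and 1.23, in daf-2;htz-1 between 3.95 and 4.68 and in the triple mutant between 1.33 and 2.15. The groups with the daf-2 allele and an intact daf-16 were thus above all others. With no filter on low values its difference was 2.39 between daf-2 and wt (limma, adjusted p = 4.22e-07) and 0.00 between htz-1 and wt. The htz-1 difference of ilys-6 was 0.89 in daf-2 (limma, adjusted p = 0.00688) and 0.54 in daf-16;daf-2 (limma, adjusted p = 0.0912).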
